A study of Mus musculus with 2 samples.

Results

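The p53 response and apoptosis genes described here are 39 mouse genes of the pathway that senses DNA damage and other stress and can end in programmed cell death. They were taken by symbol from a list of 39 names, all of which were found among the 43346 Ensembl genes of the deposited gene tables. By role they fell into 9 classes: 4 genes of p53 control, 10 p53 targets, 3 Bcl2 family effectors, 6 BH3-only genes, 4 antiapoptotic Bcl2 genes, 3 genes of the apoptosome and its mitochondrial factors, 4 caspases, 2 death receptors and 3 inhibitor of apoptosis (IAP) genes. RNA of the embryonic facial prominence, the tissue that forms the face, was sequenced from B6NCrl mouse embryos at embryonic day 10.5. Tissue of 69 embryos was pooled for replicate 1 and of 51 embryos for replicate 2, male and female together in each, with no treatment, no mutation and no other tissue named. Each library was made from 10 ng of total RNA longer than 200 nt. The design holds 1 group, so the values describe which of these genes the tissue expressed, at what level and how far the pools differed, and no test of a condition was possible.

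The transcription factor p53 is made continuously in most cells and is kept low by Mdm2, a ubiquitin ligase that is itself a p53 target, and by its partner Mdm4. Once stabilised, p53 raises genes that halt the cell cycle and genes that promote death at the mitochondrion, where BH3-only proteins, antiapoptotic Bcl2 proteins and the effectors Bax, Bak1 and Bok decide whether the outer membrane opens. Cytochrome c then assembles Apaf1 and caspase 9 into the apoptosome, while death receptors act through caspase 8, and IAP proteins restrain caspases. Cranial neural crest, from which most facial mesenchyme derives, is known to be sensitive to excess p53 activity in mouse embryos.

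Replicate 1 had 40059176 expected counts over genes and replicate 2 had 39531700. The 39 genes held 75396 of them in replicate 1 and 73921 in replicate 2. Levels are given in TPM (a scale corrected for transcript length and library size), as the value in replicate 1, the value in replicate 2 and, where useful, the mean ± SD over n = 2 pools. The tissue label was checked against its markers. All 10 facial mesenchyme markers and all 6 facial ectoderm markers were detected, Msx1 at 281 and 303 TPM and Prrx1 at 108 and 107 TPM. Other cells were present as well. Summed TPM in replicate 1 and replicate 2 was 538 and 540 for 6 markers of neurons and ganglia, 10751 and 9726 for 6 erythroid markers, 163 and 158 for 6 endothelial markers and 38.98 and 30.16 for 6 macrophage markers. The pools differed most in the hindbrain and neural tube markers, of which 4 of 6 were detected, with 86.6 TPM in replicate 1 and 162 TPM in replicate 2.

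Most of the 39 genes were expressed. Detection was set at 1 TPM or more in each library, and 37 of the 39 genes passed it, against 58.2% of all 21474 named protein coding genes. The exceptions were the p53 relative Trp73 and the death receptor Fas. At a level of 10 TPM or more in both libraries stood 27 of the 39, against 38.3% of protein coding genes. Trp53, Bax and Diablo reached 100 TPM in both, and the share of protein coding genes that did so was not counted. Diablo, the lowest of them, had 87.8% of detected protein coding genes at or below its mean level. The median gene of the group had 18.6 TPM, beside 20.1 TPM for the 12494 detected protein coding genes, and 19 of the 39 lay above that median. Summed over all members the level was 1381 TPM in replicate 1 and 1366 TPM in replicate 2. In a bulk tissue, fewer cells of a type and less RNA per cell cannot be told apart, so none of these levels gives a share of cells.

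**Figure D1:**
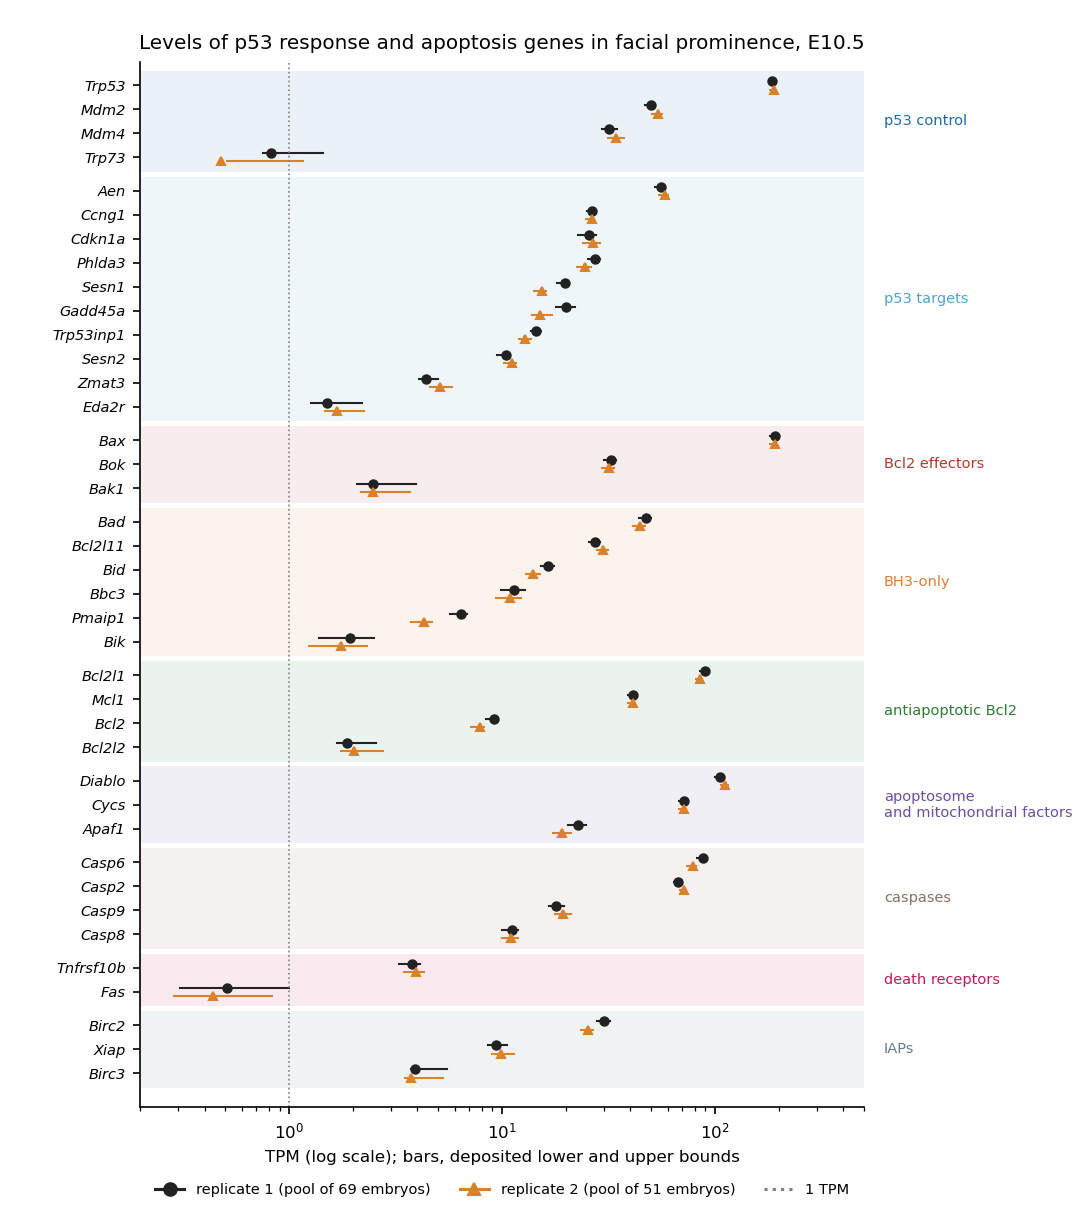
TPM of each of the 39 genes (log scale) in replicate 1 (circles) and replicate 2 (triangles), grouped by class, with the lower and upper bounds deposited by the authors as bars. Trp53 and Bax sit near 190 TPM. Trp73 and Fas are the genes with both symbols below the dotted line at 1 TPM, and the bars of Trp73 cross it.

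**Figure D2:**
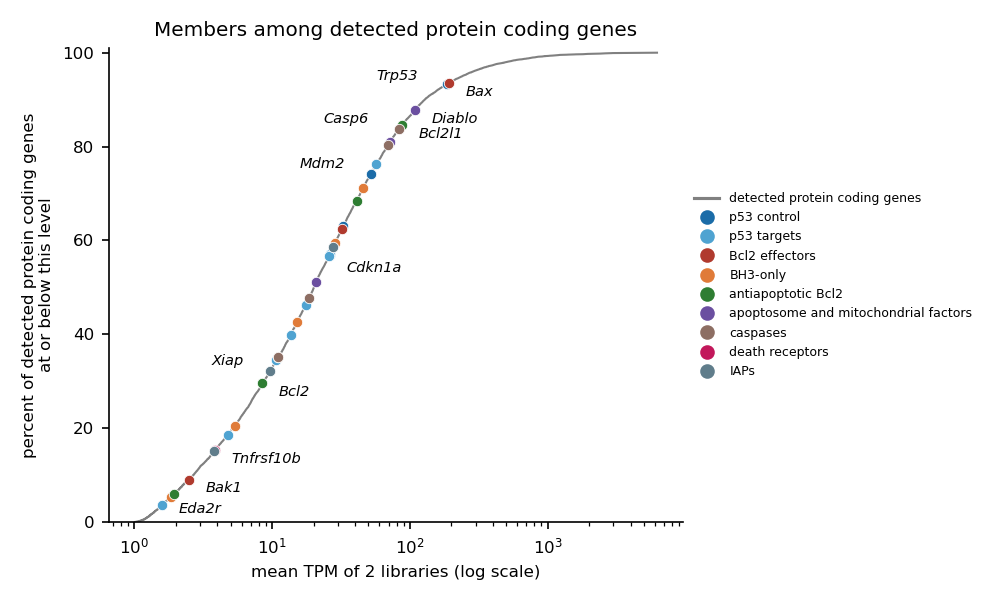
Each of the 37 detected members (coloured by class) on the cumulative distribution of the 12494 detected protein coding genes, with mean TPM on a log axis and the percent of those genes at or below that level. Members are spread along the curve from Eda2r at 3.60% to Bax at 93.5%.

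Trp53, which encodes p53 (ENSMUSG00000059552, chromosome 11, 69580359 to 69591873, plus strand, GRCm38), was read at 185 TPM in replicate 1 and 189 TPM in replicate 2. That placed it at rank 834 among detected protein coding genes, so its message was abundant in tissue with no treatment named. Mdm2 (chromosome 10, 117688875 to 117710758) had 49.9 and 53.9 TPM. Mdm4 (chromosome 1, 132959484 to 133030561), which binds p53 and lacks efficient ligase activity of its own, had 31.6 and 34.3 TPM. The order Trp53, Mdm2, Mdm4 was the same in both pools. Trp53 lay 3.60-fold above Mdm2 (95% interval 3.21 to 4.04), and Mdm2 lay 1.57-fold above Mdm4 (1.39 to 1.78). These intervals come from the replicate spread of the 200 genes nearest in level, on log2(TPM + 0.1), and a pair is said to differ beyond the spread where the interval leaves out equality and both libraries have the same direction.

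Trp73, a p53 family member with roles in neurons and ciliated cells, was the low gene of the p53 control class, with 0.82 TPM in replicate 1 and 0.48 TPM in replicate 2. Both values lay under the detection threshold and rested on 90 and 57 counts. The deposited bounds crossed the threshold in both libraries, from 0.7498 to 1.435 TPM in replicate 1 and 0.5097 to 1.155 TPM in replicate 2. Posterior means were 1.08 and 0.81 TPM. Trp53 was 256-fold above Trp73 (104 to 628), a log2 difference of 8.00, or 7.47 by posterior means. Its antisense neighbour Trp73os was listed at 0 in both libraries.

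All 10 p53 targets were detected, at mean levels between 1.59 and 57.0 TPM. Aen, an apoptosis-enhancing nuclease, led the class with 55.8 and 58.3 TPM and held 28.4% ± 1.66 of the class total. Below it stood 3 genes at nearly the same level. Cdkn1a, the p21 inhibitor of cyclin-dependent kinases, had 25.5 TPM in replicate 1 and 26.8 TPM in replicate 2. Ccng1, cyclin G1, had 26.4 and 26.3 TPM, and Phlda3, a repressor of Akt signalling, had 27.1 and 24.6 TPM. Which of these was highest differed between the pools. Cdkn1a and Ccng1 differed by -0.01 on the log2 scale, with an interval of -0.25 to 0.23, so the data place them within about 1.19-fold of each other in either direction.

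The sestrins Sesn1 and Sesn2, stress proteins that restrain mTORC1, stood at 19.6 and 15.4 TPM for Sesn1 and at 10.4 and 11.1 TPM for Sesn2. Sesn1 was 1.62-fold higher than Sesn2 (1.28 to 2.05), though replicate 2 alone gave a log2 difference of 0.47 with an interval of -0.01 to 0.95. Gadd45a, a growth arrest gene induced by DNA damage, had 19.9 and 15.1 TPM. Its exons share 337 bases with E230016M11Rik on the opposite strand, which itself had 3.08 and 2.46 TPM, and the sources used here do not say whether counting used strand. Trp53inp1, a cofactor in autophagy and p53 phosphorylation, had 14.5 and 12.8 TPM.

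At the low end of the targets, Zmat3, an RNA-binding zinc finger gene, had 4.39 and 5.11 TPM. Eda2r, the X-linked receptor for the ectodysplasin isoform EDA-A2, had 1.5 and 1.67 TPM, the lowest of the class. In the order of levels within the class, 6 of 9 neighbouring genes differed beyond the replicate spread. Ccng1 with Cdkn1a, Cdkn1a with Phlda3, and Sesn1 with Gadd45a did not.

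Promoter windows were read from RefSeq (GRCm38.p6), each running from 250 bases before a transcription start to 50 after it, and searched for the p53 half-site, the 10-base consensus of which p53 tetramers bind a pair. The consensus is palindromic, so 1 search covers both strands. Of the 34 members with a window, 9 (26.5%) held at least 1 match, against 9.55% of all 27025 genes. Counted by window, since a gene can have several starts, 20.8% of 48 member windows held a match, against 8.36% of all 32851. Tnfrsf10b, Trp53inp1, Bik, Pmaip1 and Zmat3 had no entry. By class, a match was found in 5 of 8 p53 targets, 2 of 4 p53 control genes, 1 of 3 effectors and 1 of 3 IAP genes, and in none of the BH3-only (4), antiapoptotic (4), apoptosome (3), caspase (4) or death receptor (1) genes. Member windows were also richer in CpG, with a median of 21 CpG against 7 over all windows, and in GC, with 63.3% against 52.7%. The p53 targets were listed for known regulation by p53, so the share over all members is not independent of that choice. What the choice of genes and these base compositions contribute to the difference was not tested. A match is a description of letters and not evidence of binding, and no match says only that these letters were absent from this window.

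The 7 stretches below are shown because their matches lie before each RefSeq start whose window holds them. Capitals mark the half-site, 20 bases of flank stand on each side, and each is written 5′ to 3′ on the gene's own strand.
Cdkn1a, chr17:29090886-29090957, plus strand: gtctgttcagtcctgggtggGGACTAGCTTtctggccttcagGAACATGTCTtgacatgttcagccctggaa
Ccng1, chr11:40755442-40755491, minus strand: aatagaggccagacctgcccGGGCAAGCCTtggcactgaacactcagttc
Sesn1, chr10:41887246-41887295, plus strand: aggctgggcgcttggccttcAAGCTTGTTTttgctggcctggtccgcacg
Gadd45a, chr6:67037418-67037467, minus strand: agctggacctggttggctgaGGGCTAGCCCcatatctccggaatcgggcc
Mdm2, chr10:117710915-117710964, minus strand: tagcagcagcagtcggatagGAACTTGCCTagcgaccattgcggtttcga
Trp53, chr11:69580264-69580313, plus strand: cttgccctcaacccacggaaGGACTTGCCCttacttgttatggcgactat
Bax, chr7:45467070-45467119, minus strand: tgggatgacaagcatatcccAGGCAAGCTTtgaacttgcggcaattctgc
Cdkn1a was the only one of these with a pair of matches in 1 window, at 73 and 51 bases before the start of that window's transcript and 12 bases apart. In the others the match began between 40 bases before the start in Gadd45a and 201 bases before it in Bax. Cdkn1a and Sesn1 also had a window at another start, which held no match. By GENCODE M21, the stretch of Sesn1 lies in an intron of its longer transcript Sesn1-202. That of Gadd45a runs into a retained-intron transcript, and its half-site lies inside the annotated bounds of the gene (67035096 to 67037457). The other 5 stretches lie outside the exons of their genes. The remaining matches were in Aen and Birc2, where the letters lie in the transcribed part of at least 1 window. The genes with a match did not share a level, since Bax and Trp53 stood near 190 TPM and Sesn1 and Gadd45a below 20 TPM.

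The Bcl2 family effectors, which open the outer mitochondrial membrane, were expressed very unequally. Bax (ENSMUSG00000003873, chromosome 7, 45461697 to 45466898, minus strand) had 191 TPM in both replicate 1 and replicate 2, the highest level of all 39 genes and rank 813 of detected protein coding genes. Bok, which can act without the other effectors, had 32.6 and 31.7 TPM. Bak1, usually regarded as the partner that can replace Bax, had only 2.48 and 2.47 TPM. Bax was 74.2-fold above Bak1 (51.6 to 107) and held 84.7% ± 0.274 of the class total, while Bok was 12.5-fold above Bak1 (8.69 to 18.0). Exons of Bak1 share 437 bases with Ggnbp1 on the opposite strand (2.96 and 4.13 TPM), and the 121 and 129 counts given to Bak1 may include reads of that gene.

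The BH3-only genes, whose products start mitochondrial apoptosis by binding other Bcl2 proteins, were all detected, between 1.84 and 46.0 TPM on average. Bad, which links survival kinase signalling to Bcl2l1, led with 47.6 and 44.3 TPM. Bcl2l11, which encodes Bim, followed with 27.4 and 29.7 TPM. Bid, cleaved by caspase 8 to connect death receptors to mitochondria, had 16.4 and 14 TPM, 3.02-fold below Bad (2.58 to 3.55). Bad overlaps Gpr137 on the opposite strand over 524 exon bases and Bid overlaps Bcl2l13 over 628, with 19.0 and 18.2 TPM for Gpr137 and 30.4 and 32.5 TPM for Bcl2l13. Their levels carry that uncertainty.

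The BH3-only genes known best as p53 targets stood lower. Bbc3, which encodes Puma, had 11.4 TPM in replicate 1 and 10.8 TPM in replicate 2. Pmaip1, which encodes Noxa, had 6.38 and 4.28 TPM. By gene-level TPM, which includes noncoding transcripts, Bbc3 was 2.10-fold above Pmaip1 (1.54 to 2.87), and Bcl2l11 was 2.56-fold above Bbc3 (2.11 to 3.10). Bik was the lowest of the class, with 1.92 and 1.75 TPM on 43 and 39 counts. Every neighbouring pair in the order Bad, Bcl2l11, Bid, Bbc3, Pmaip1, Bik differed beyond the replicate spread.

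Among the antiapoptotic genes, Bcl2l1, which encodes Bcl-xL, was the main message. It had 89.2 TPM in replicate 1 and 85.0 TPM in replicate 2 and made up 62.9% ± 0.417 of the class. Mcl1, a short-lived guardian of the mitochondrion, had 41.03 and 41.01 TPM. Bcl2, the founding member, had 9.14 and 7.83 TPM. Bcl2l2, which encodes Bcl-w, had 1.87 and 2.01 TPM and shares 594 exon bases with the same-strand gene Gm20521. Bcl2l1 lay 10.2-fold above Bcl2 (8.17 to 12.7) and 2.12-fold above Mcl1 (1.88 to 2.39), and Bcl2 lay 4.20-fold above Bcl2l2 (2.36 to 7.46).

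Set against each other as sums of TPM, the antiapoptotic genes came to 0.626 of the effectors in replicate 1 and 0.602 in replicate 2. BH3-only genes came to 0.786 and 0.773 of the antiapoptotic genes. Bax alone exceeded Bcl2l1 by 2.19-fold (1.97 to 2.44). These are ratios of messages, and protein amounts were not measured.

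**Figure D3:**
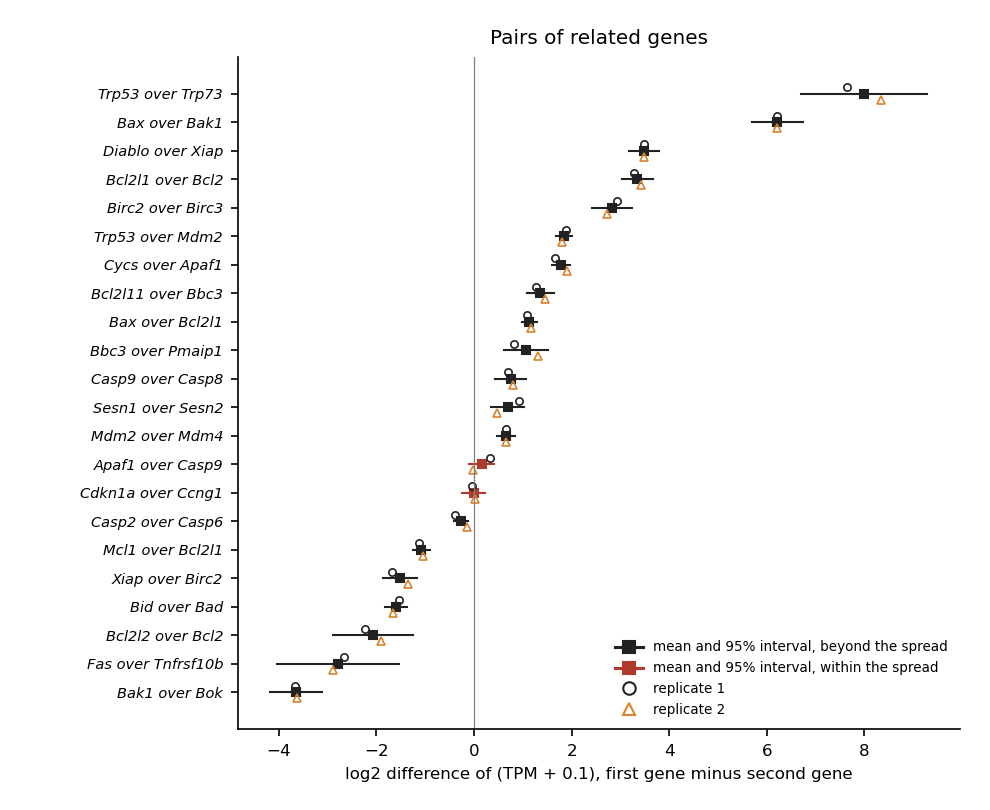
Log2 difference of (TPM + 0.1) between the genes of 22 related pairs, first gene minus second gene, as the mean over both libraries with its 95% interval (squares and bars) and the value in each library (open symbols). The interval reaches across 0 for Cdkn1a over Ccng1 and for Apaf1 over Casp9, and Trp53 over Trp73 and Bax over Bak1 lie farthest to the right.

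The genes of the apoptosome and its mitochondrial factors all stood above 10 TPM. Diablo, whose product is released from mitochondria and neutralises IAP proteins, had 105 and 112 TPM. Cycs, somatic cytochrome c, had 71.4 and 71.5 TPM. Apaf1, the scaffold of the apoptosome, had 22.6 TPM in replicate 1 and 19.1 TPM in replicate 2, 3.43-fold below Cycs (3.02 to 3.90). Cycs, a gene with many processed pseudogenes, had counts that were not whole numbers (5436.35 and 5336.22), as had 13 of the 39 genes; such counts arise where reads are divided among features. Diablo shares 1326 exon bases with B3gnt4 on the opposite strand (1.67 and 1.25 TPM).

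The listed caspases spanned 11.0 to 82.9 TPM on average. Casp6, an executioner caspase, had 87.4 and 78.3 TPM. Casp2, the caspase of the PIDDosome that responds to DNA damage and extra centrosomes, had 66.8 and 71.2 TPM. Casp6 was 1.2-fold above Casp2 (1.09 to 1.33). In replicate 2 alone the log2 difference of Casp2 from Casp6 was -0.14 with an interval of -0.34 to 0.07, so that difference rests on replicate 1.

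The initiators of the 2 classical routes were lower. Casp9, the apoptosome caspase, had 17.9 and 19.3 TPM, and Casp8, the death receptor caspase, had 11.1 and 11.0 TPM. Casp9 exceeded Casp8 by 1.68-fold (1.35 to 2.09). Casp9 and its scaffold Apaf1 could not be separated, with a log2 difference of 0.16 for Apaf1 over Casp9 (-0.10 to 0.41) and opposite directions in the pools. For the death receptors themselves, Tnfrsf10b, the mouse TRAIL receptor, had 3.77 and 3.93 TPM and Fas had 0.51 and 0.44 TPM. Fas rested on 15 and 16 counts, and the deposited bounds in replicate 1 ran from 0.307 to 0.993 TPM. Tnfrsf10b was 6.88-fold above Fas, with a wide interval of 2.90 to 16.3.

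Of the IAP genes, Birc2, which encodes cIAP1, a ligase in TNF receptor signalling, had 30.1 and 25.3 TPM. Xiap, the direct caspase inhibitor, encoded on the X chromosome (42059679 to 42109656), had 9.37 and 9.86 TPM. Birc3, which encodes cIAP2 and lies beside Birc2 on chromosome 9, had 3.89 and 3.73 TPM. Birc2 was 2.85-fold above Xiap (2.24 to 3.62) and 7.08-fold above Birc3 (5.32 to 9.43), and counts of both Birc2 and Birc3 were fractional. Diablo exceeded Xiap by 11.2-fold (9.02 to 13.8). As a sum, the IAP genes came to 0.237 of the caspases in replicate 1 and 0.216 in replicate 2.

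Across the whole set, 20 of the 22 pairs of related genes differed beyond the replicate spread, and within classes 27 of 30 genes next to each other in level did. How often pairs of other genes differ so was not counted, so these counts do not set the members apart. A pair of genes can also differ in TPM through gene-specific errors of mapping and length, which the spread between pools does not contain.

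The pools themselves differed little in these genes, and by the median about as much as in all genes compared. Of the 37 members averaging at least 50 counts, none was 2-fold higher in replicate 1, where 0.670% of the 14035 genes compared were, and none was 2-fold higher in replicate 2, where 0.556% were. At 1.5-fold, 1 member (Trp73) was higher in replicate 1, beside 2.66% of all genes, and none in replicate 2, beside 1.99%. The median size of the log2 ratio, from TMM-scaled counts with a prior count of 2, was 0.09 for members and 0.09 for all genes compared. Counting only direction, 16 members were higher in replicate 1 and 21 in replicate 2. In 35 of the 37 the pools lay within 1.25-fold of each other, and the share of all genes within that bound was not counted.

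The exceptions were Trp73 and Pmaip1, both higher in replicate 1. Trp73 had 90 and 57 counts, a log2 ratio of 0.60, where the 200 genes nearest in level had a median size of 0.27. Pmaip1 had 431 and 287 counts, a log2 ratio of 0.54 or 1.46-fold, where its 200 nearest genes had a median size of 0.18. Sesn1 followed with a log2 ratio of 0.30 on 1356 and 1070 counts, and Gadd45a with 0.29 on 524 and 418 counts. The 200 genes nearest in level had a median size of 0.08 for each of them. These ratios were smaller than those of Trp73 and Pmaip1 and stood above that median, as those of many genes must. How many genes of like level had ratios as large was not counted. Of the 10 p53 targets, 4 had the higher value in replicate 1 and 6 in replicate 2, with Eda2r (-0.28), Cdkn1a (-0.17) and Zmat3 (-0.17) on the side of replicate 2. Beside these ratios, summed TPM was higher in replicate 1 for facial mesenchyme markers (805 against 756) and macrophage markers (38.98 against 30.16). By scaled counts, 7 mesenchyme markers were higher in replicate 1 and 3 in replicate 2, among the latter Msx1. The sum was lower in replicate 1 for hindbrain and neural tube markers (86.6 against 162), where Hes5 had 71.2 and 126 TPM. Hoxb1 had 1.03 TPM in replicate 1 and 5.91 TPM in replicate 2, and Hoxb2 had 4.92 and 14.2 TPM. Sox1 (0.88 and 0.93 TPM) and Egr2 (0.76 and 0.94 TPM) differed less. The part of these cell types in the ratios of single genes was not tested.

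**Figure D4:**
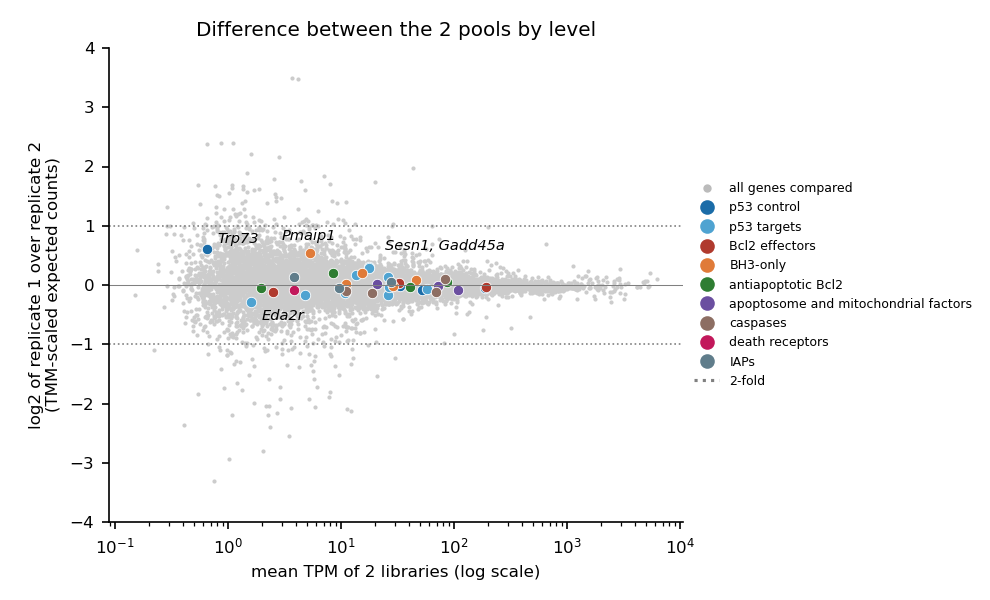
Log2 ratio of replicate 1 over replicate 2 (TMM-scaled expected counts) against mean TPM (log scale) for all genes averaging at least 50 counts (grey; 4 genes lie outside the plotted range) and for the 37 members compared (coloured by class). All members lie between the dotted lines at 2-fold, with Trp73 at 0.60 and Pmaip1 at 0.54 the highest.

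In some members a large share of the message was assigned to transcripts that are not annotated as protein coding. The highest share of processed, retained-intron or nonsense-mediated decay transcripts was that of Xiap, with 64.4% in replicate 1 and 61.0% in replicate 2, the only member above 50% in both. Its most abundant transcript was the processed transcript Xiap-207, with 52.6% and 44.8%. For Bbc3 the retained-intron transcript Bbc3-203 took 46.0% and 44.6%, beside 54.0% and 55.4% for the coding Bbc3-201. That coding transcript had 6.13 and 6.01 TPM, beside 6.38 and 4.28 TPM for Pmaip1, which has 1 annotated transcript. The coding messages of Bbc3 and Pmaip1 thus differed in opposite directions in the pools. The shares of Bak1 were 49.3% and 44.2%, and those of Mdm4 were 35.9% and 49.0%. Gene-level TPM of these genes therefore counts transcripts that may yield no protein, and such shares depend on the annotation.

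**Figure D5:**
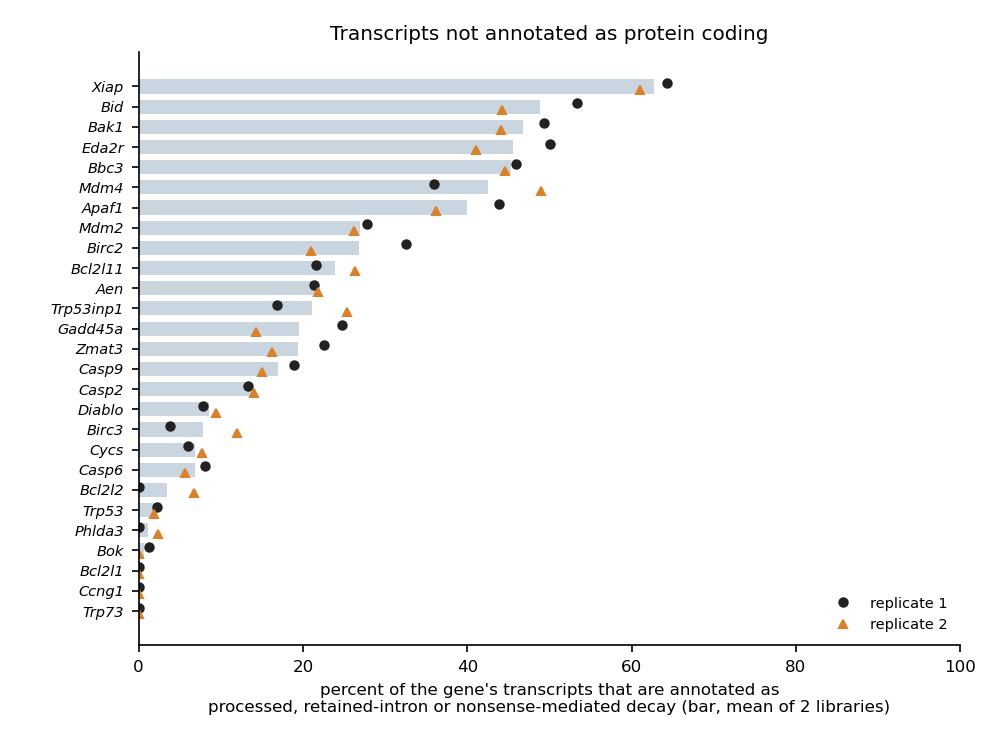
Percent of each gene's transcripts annotated as processed, retained-intron or nonsense-mediated decay, for the 27 members with at least 1 such transcript, in replicate 1 (circles), replicate 2 (triangles) and as the mean (bars, from 0). Xiap leads with 64.4% and 61.0%, and Bcl2l1, Ccng1 and Trp73 are listed at 0 in both libraries.

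The leading transcript was compared in the 27 members that averaged 5 TPM or more and had 2 or more annotated transcripts. It was the same in both libraries for 25, near the 93.8% of all 7738 genes compared. In 22 members it held over 50% in both libraries, and the share of all genes that did so was not counted. The leading transcript differed between the libraries for Bid and Apaf1. For Bid, the nonsense-mediated decay transcript Bid-204 held 53.4% in replicate 1 and 44.3% in replicate 2, and the coding Bid-201 held 46.6% and 55.7%. For Apaf1, the short processed transcript Apaf1-204 of 511 bases held 40.9% and 33.7%, and the coding Apaf1-202 held 36.3% and 37.6%. The same gene had a log2 ratio between the pools of 0.25 in TPM and 0.02 in counts (2196 and 2102 counts). For Fas, on 15 and 16 counts, the ratios were 0.18 in TPM and -0.12 in counts, opposite in sign. For Birc2 they were 0.25 in TPM and 0.06 in counts. A gene's TPM depends on the lengths of the transcripts its reads are assigned to, and the shares of short transcripts of Apaf1 and Birc2 were higher in replicate 1, with 13.4% and 3.52% for Birc2-205 of 707 bases.

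Among coding transcripts, Mcl1-201 held 98.4% in both libraries. Bcl2l1-201 held 57.3% and 59.9%. Bcl2-201 held 56.4% and 55.7%, and Bcl2-202 the remaining 43.6% and 44.3%. Casp8 was less even, with 51.0% and 69.3% for Casp8-201 and 49.0% and 30.7% for Casp8-202. Birc2-204 held 37.0% and 51.5%.

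Transcript shares of Trp53 depended on the estimate. By maximum likelihood, Trp53-201 held 67.9% in replicate 1 and 67.4% in replicate 2, and Trp53-203 held 12.4% and 12.9%. By the posterior mean deposited beside it, Trp53-201 held 48.7% and 39.1% and Trp53-203 held 31.1% and 40.4%. These transcripts are annotated with 1772 and 1771 bases, and their separate shares are not fixed by these data.

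The wider pathway was read from 4 further lists with 87 genes. Detection in them is to be read beside the 58.2% of all named protein coding genes that were detected. Of 18 upstream kinases and modifiers of p53, 17 were detected, led by the ribosomal proteins Rpl11 (430 and 435 TPM) and Rpl5 (77.8 and 83.4 TPM), which bind Mdm2, and by the p53-binding repair protein Trp53bp1 (104 and 99.1 TPM). The exception, Cdkn2a, which encodes the Mdm2 inhibitor Arf, was listed at 0 in both libraries. Of 34 further p53 targets, whose median over all of them was 18.2 TPM, 29 were detected, led by Rps27l (656 and 673 TPM), Psrc1 (86.3 and 87.6 TPM) and Ei24 (76.2 and 73.7 TPM).

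Of 12 other Bcl2 family genes, 5 were detected. They included Bnip3l (346 and 345 TPM), a mitophagy receptor, Bnip3 (102 and 112 TPM) and Bcl2l12 (73.3 and 75.7 TPM). Of 23 further caspase and death machinery genes, 17 were detected, among them the DNA repair enzyme and caspase substrate Parp1 (241 and 244 TPM) and the chaperone cofactor Bag1 (177 and 169 TPM). The ligand genes of the listed death receptors were near 0, with 0.02 TPM in both libraries for Fasl and 0.01 and 0.02 TPM for Tnfsf10. Compared between the pools were 17, 29, 5 and 17 genes of these 4 lists, in the order given, and none was 2-fold apart. The kinase gene Plk3 alone passed 1.5-fold, with 6.65 TPM in replicate 1 and 12.6 TPM in replicate 2. Of all genes compared, 2.66% were 1.5-fold higher in replicate 1 and 1.99% in replicate 2. At 2-fold these shares were 0.670% and 0.556%.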

How the data were processed

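RNA was extracted with the mirVana kit and the labels link the manual of a SMARTer low-input kit. The authors deposited expected counts per gene and TPM per gene and per transcript for each library, with the share of each transcript in percent, the same quantities as posterior means, and lower and upper bounds of TPM whose level is not given in the sources used here. Deposited TPM was scaled over all features of a file, spike-ins included. Per the file headers and accompanying notes, the build was mm10 and the annotation GENCODE M4. Aligner, quantifier, versions and the use of strand are not given in the sources used here. Symbols, transcript types and coordinates came from GENCODE M21 on GRCm38, the same assembly.

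The members and lists were chosen with earlier results of these data known. All 39 members are named. Of the other pathway lists, up to 3 genes of highest mean TPM and any 2-fold apart are named, and of the cell type markers up to 2 of highest mean TPM. The values of 1 gene named by this rule are left out. Genes named beyond the rule (Cdkn2a, Fasl, Tnfsf10, Plk3, Hoxb1, Hoxb2, Sox1, Egr2) were chosen after their values were seen.

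Ratios between libraries used expected counts of Ensembl genes with TMM factors from edgeR 4.0.16 (size factors from DESeq2 1.42.0 as an alternative), a prior count of 2 and a mean count of at least 50. Pairs used log2(TPM + 0.1). Total expected counts were 41492881 in replicate 1 and 41153413 in replicate 2. Both calculations were tested on simulated data. The test of the pair interval drew only genes with high counts, so it does not cover members with fewer counts. Those members are Trp73, Gadd45a, Eda2r, Bak1, Bbc3, Pmaip1, Bik, Bcl2l2, Fas, Tnfrsf10b and Birc3. The pools share a strain entry in the labels and are 2 pools, not single embryos. No p-value was computed, since 1 group gives no contrast.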

Additional observations from a re-analysis of the deposited data

How the results depend on the processing

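Of 27 alternative settings of the 5 summary results, 23 left the value within the replicate spread or within 1.5 times the count. The median level of 18.6 TPM was 20.3 TPM after rescaling over Ensembl genes, 20.8 TPM over detected members alone, and 19.05 to 19.87 TPM in single libraries. Members apart between the pools numbered 1 at 1.5-fold, against 0 at 2-fold. Beyond the spread were 18 pairs without replicate 1 and 20 without replicate 2, and the call of 20 of 22 pairs held under each of 7 alternatives. Without replicate 1, Sesn1 over Sesn2 (0.47) and Casp2 over Casp6 (-0.14) fell within the spread. The size of a difference that involves a low gene depended on the TPM added before the log. With 1 in place of 0.1, the log2 difference of Fas over Tnfrsf10b went from -2.78 to -1.72. That of Trp53 over Trp73 went from 8.00 to 6.84. The same leading transcript was found for 24 of 27 members by posterior means, where Trp53 also differed, and for 29 of 32 at 1 TPM, where Bak1 also differed. Depth limits Fas (15 and 16 counts) and Bik (43 and 39). No paired analysis was possible because the study holds 1 group.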
